A study of Arabidopsis thaliana with 6 samples.

Results

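SPPA and 9 other nuclear genes of chloroplast proteases, FTSH1, FTSH5, FTSH2, FTSH8, DEG1, CLPC1, CLPP3, CLPP5 and CLPP6, were followed in the vegetative tissue of Arabidopsis thaliana. They are 10 of the 27416 genes in the deposited tables, and reads were summed over the transcript models of each locus. The libraries came from 21-day-old plants of ecotype Columbia grown normally on MS medium, 3 from plants labelled ucp1 ucp3 double mutant and 3 from wild-type plants. UCP1 and UCP3 belong to the mitochondrial uncoupling protein family. The alleles of the mutant are not given in the sources used here, nor is what separated the biological replicates of a group, so p-values measure only the spread between these samples. The 10 genes were chosen with the comparison of these same libraries already known. Their differences between the groups are therefore given as a description, without a test.

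Chloroplasts break down and process their proteins with enzymes inherited from the bacterial ancestor of the plastid. The thylakoid FtsH complex is an ATP-dependent membrane metalloprotease built from type A subunits (FTSH1, FTSH5) and type B subunits (FTSH2, FTSH8), and with the lumenal serine protease DEG1 it removes light-damaged reaction centre protein during photosystem II repair. Loss of FTSH5 or FTSH2 gives the variegated leaves of the var1 and var2 mutants. The stromal Clp system joins the chaperone CLPC1 to a barrel of catalytic CLPP and inactive CLPR subunits and degrades soluble proteins. SPPA is a thylakoid-associated serine protease related to bacterial signal peptide peptidase A, and its transcript is known to respond to light.

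Depth ran from 1183612 to 11296137 assigned reads per library. The shallowest library, ucp1 ucp3 replicate 3, lay far from the rest on principal component 1 (59.3, where the other 5 had -28.8 to 9.42). UCP1 had 67.2, 46.6 and 53.3 CPM (counts scaled to a common library size) in the 3 labelled double mutants and 69.2, 67.3 and 75.3 CPM in wild-type, and UCP3 had 8.68, 10.2 and 10.8 CPM in the labelled mutants, against 12.3, 16.1 and 13.0 CPM in wild-type. Both were lower in the labelled mutants without overlap and had an unadjusted edgeR p of 0.0252 for UCP1 and 0.0249 for UCP3. Neither passed the test over all genes (edgeR adjusted p = 0.226 for UCP1 and 0.224 for UCP3), and both transcripts were present in every library. They are thus an incomplete check of the labels, on which every direction given here rests. Of 4 green leaf marker genes, LHCB1.3 was called higher in the labelled mutants, by 0.72 on the log2 scale (edgeR adjusted p = 0.0320). No green leaf marker was called when any library other than ucp1 ucp3 replicate 2 was left out. Paralogues of LHCB1.3 share 32.1% of its 31-mers (words of 31 bases of the mRNA). The summed level of the 4 was 28524 to 35736 CPM in the labelled mutants and 24155 to 26437 CPM in wild-type. Within it LHCB1.3 averaged 18253 CPM in the labelled mutants and 11048 CPM in wild-type, and RBCS1A 12142 and 11909 CPM. The groups overlapped for 3 of the 4, and the log2 fold changes ran from -0.08 to 0.72, with 1 under 0. The 4 root markers were also detected and summed to 1459 to 1958 CPM in the labelled mutants and 1679 to 2408 CPM in wild-type. The 3 flower markers summed to 4.57 to 7.22 CPM in the labelled mutants and 2.09 to 3.88 CPM in wild-type, with AP3 at 0 reads in wild-type replicates 2 and 3 and AP1 at 0 in wild-type replicate 3. None of the green leaf or root markers was at 0 reads in any library. The part of these marker differences in the results below was not tested, and fewer cells of a type cannot be told apart from less RNA per cell.

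SPPA had the widest difference between the groups among the 10 genes and was lower in the labelled mutants. SPPA (AT1G73990, on chromosome 1) had 17.4, 17.8 and 19.9 CPM in the 3 labelled mutants, against 59.6, 49.9 and 50.0 CPM in wild-type. The 3 labelled mutants were close to each other and all lay under every wild-type library, the lowest wild-type value being 2.51 times the highest value of the labelled mutants. The mean was 18.4 ± 1.32 CPM in the labelled mutants and 53.1 ± 5.57 CPM in wild-type (SD, n = 3 each).

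These SPPA values rest on 76, 203 and 22 reads in the labelled mutants and on 291, 180 and 215 reads in wild-type. In the shallowest library, ucp1 ucp3 replicate 3, the exact 95% Poisson interval was 12.4 to 30.1 CPM, which covers counting error only and not the spread between samples. The fitted log2 fold change of SPPA was -1.57 ± 0.14 (SE), which places its level in the labelled mutants at 33.8% of wild-type, with a 95% interval of 28.0% to 40.8%. Of the 17415 genes tested, 23 had a lower log2 fold change. Among the 12473 genes averaging 10 CPM or more there were 13. Leaving out any 1 library kept the log2 fold change of SPPA between -1.61 and -1.47. The tables hold 1 transcript model for SPPA, and none of its 2454 annotated 31-mers occurs in another annotated mRNA on either strand.

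**Figure D1:**
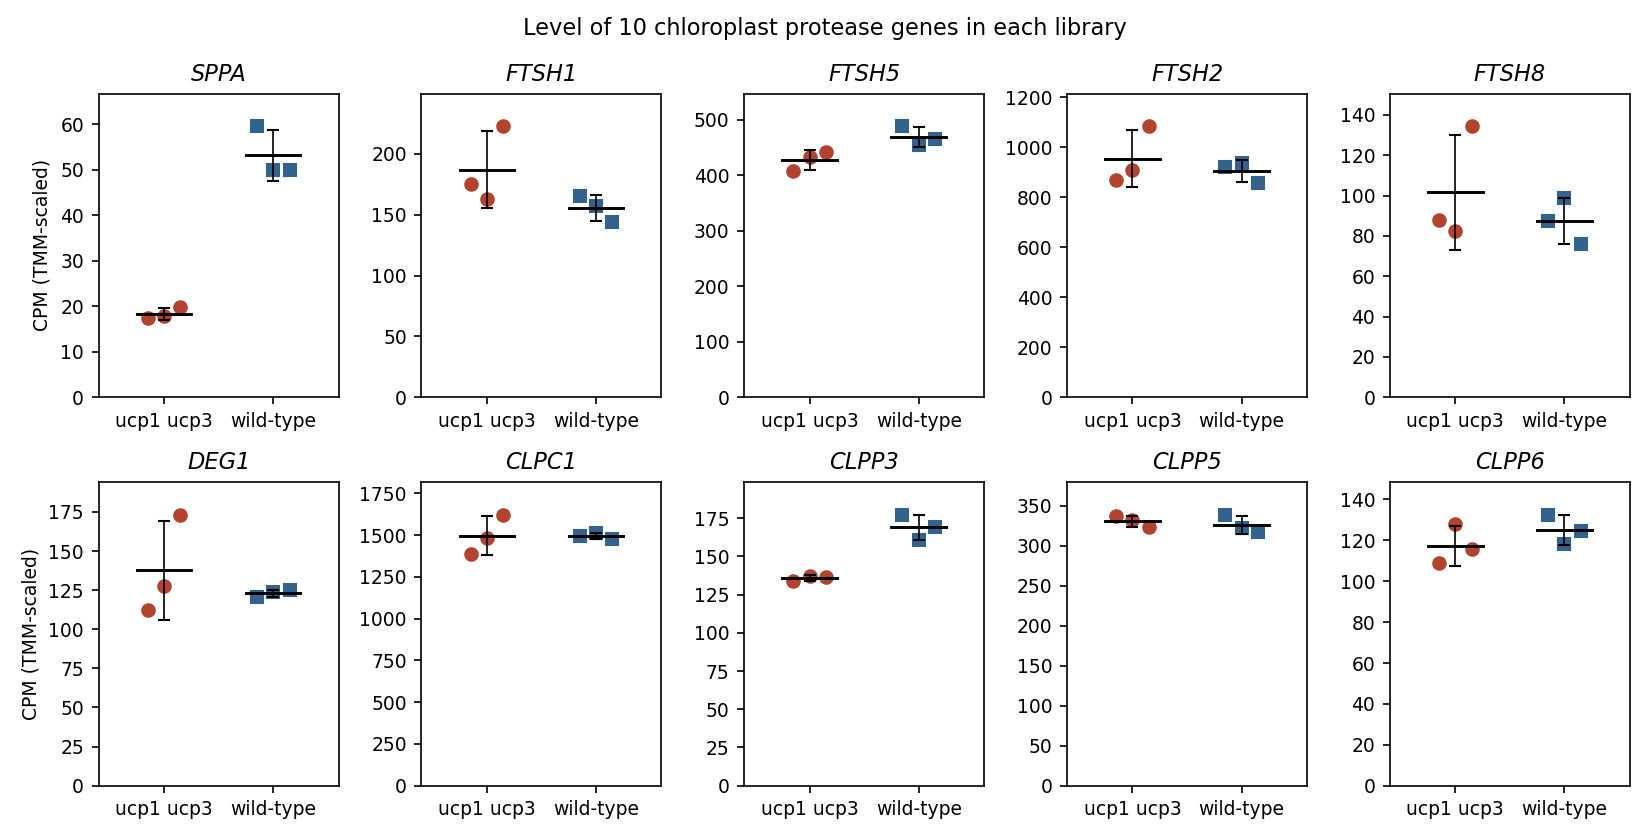
Level of each of the 10 protease genes in CPM (vertical axes, linear, starting at 0, a scale per gene) in the 3 libraries labelled ucp1 ucp3 (circles) and the 3 wild-type libraries (squares), with the mean (line) and SD (bar). SPPA lies at 17.4 to 19.9 CPM in the labelled mutants and at 49.9 to 59.6 CPM in wild-type, CLPP3 and FTSH5 also do not overlap, and the other 7 genes overlap.

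Calls in the fit over all genes, made at an edgeR adjusted p under 0.05, are given for the 10 genes as a count only, since the genes were chosen on this comparison. They included 1 of the 10, SPPA, as lower. Of all tested genes 0.482% were called lower (84) and 0.781% higher (136), 1.26% in either direction. Scaled by library totals alone, 110 were lower and 109 higher. Nothing is read from the share of the 10. Among the other 9 genes, edgeR and DESeq2 and limma-voom called 0, where DESeq2 called 4.2% of the 9264 genes it gave an adjusted p. An unadjusted edgeR p under 0.05 was reached by 1 of the 9, CLPP3, and by 16.4% of all tested genes. The groups did not overlap in CPM for 3 of the 10 genes, all lower in the labelled mutants, where 23.6% of all tested genes did not overlap, 12.4% lower and 11.2% higher. The median log2 fold change of the 10 was 0.01, from -1.57 to 0.24, against a median of -0.0024 over all tested genes.

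**Figure D2:**
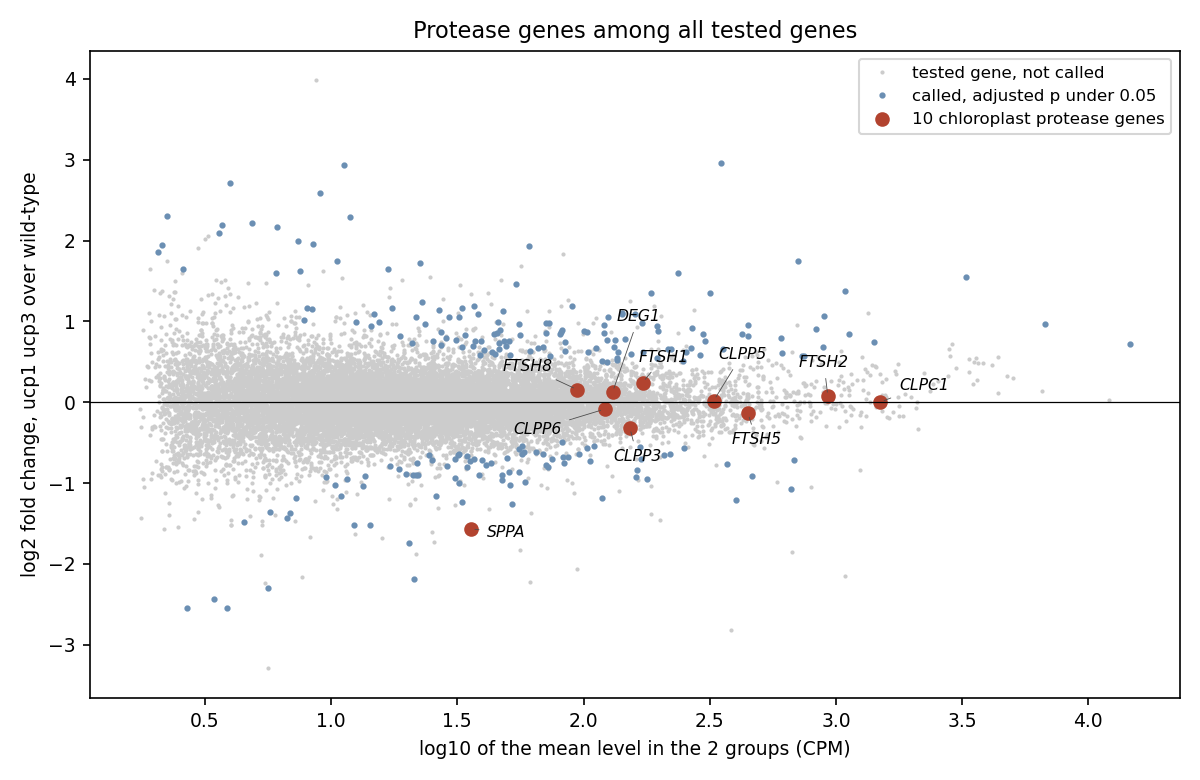
Log2 fold change, ucp1 ucp3 over wild-type (vertical axis), against the log10 of the mean CPM of both groups (horizontal axis) for the 17415 tested genes, with called genes in blue and the 10 protease genes as red circles. SPPA sits at -1.57, whereas the other 9 lie between -0.32 and 0.24.

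The type A subunits of the thylakoid FtsH complex had estimates of opposite sign. FTSH5 (AT5G42270), the more abundant type A subunit, had 408, 432 and 442 CPM in the labelled mutants, against 488, 454 and 464 CPM in wild-type. All 3 labelled mutants were under the lowest wild-type library, by a small margin. Its log2 fold change was -0.14 ± 0.11 (SE), with a level of 78.6% to 105% of wild-type by the 95% interval.

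FTSH1 (AT1G50250), the close relative of FTSH5, had 176, 163 and 223 CPM in the labelled mutants, against 166, 157 and 144 CPM in wild-type. The groups overlapped, and ucp1 ucp3 replicate 3 was the highest of all 6. The log2 fold change of FTSH1 was 0.24 ± 0.13 with all 6 libraries, or 99.7% to 141% of wild-type. Without ucp1 ucp3 replicate 3 it was 0.13.

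As a share of both type A transcripts on the TPM scale (relative abundance corrected for transcript length), FTSH1 made up 30.2%, 27.4% and 33.6% in the labelled mutants and 25.4%, 25.8% and 23.7% in wild-type. The share did not overlap between the groups. Reads of FTSH1 and FTSH5 were separable over nearly the whole length, since 7 of the 2543 31-mers of FTSH1 occur in FTSH5. A neighbouring gene holds 10.6% of the 31-mers of FTSH1 in antisense.

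The type B subunits overlapped between the groups. FTSH2 (AT2G30950), the most abundant of the 4 subunits, had 868, 909 and 1084 CPM in the labelled mutants, against 922, 937 and 856 CPM in wild-type. FTSH8 (AT1G06430), its minor partner, had 87.7, 82.6 and 135 CPM in the labelled mutants and 87.4, 98.6 and 76.0 CPM in wild-type. For both genes ucp1 ucp3 replicate 3 was the highest library. The log2 fold change of FTSH2 was 0.07 ± 0.12 with all 6 libraries and -0.02 without that one. For FTSH8 it was 0.16 ± 0.17 with all 6 and -0.03 without it.

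FTSH8 supplied 9.50%, 8.63% and 11.4% of the type B TPM in the labelled mutants, and 8.97%, 9.86% and 8.45% in wild-type. The range of this share over all 6 libraries was therefore narrow, and the groups overlapped. Antisense overlap takes 6.78% of the 31-mers of FTSH2. Of those of FTSH8, 47 of 2896 occur in FTSH2, and the estimated counts of both were whole numbers in every library except ucp1 ucp3 replicate 2.

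Summed over the 4 FTSH genes, the TPM level was 686, 769 and 859 in the labelled mutants and 815, 824 and 742 in wild-type. The type A share of that sum was 36.4%, 36.0% and 33.8% in the labelled mutants and 37.8%, 35.6% and 37.9% in wild-type. Neither the sum nor the share of the 2 subunit types separated the groups.

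**Figure D3:**
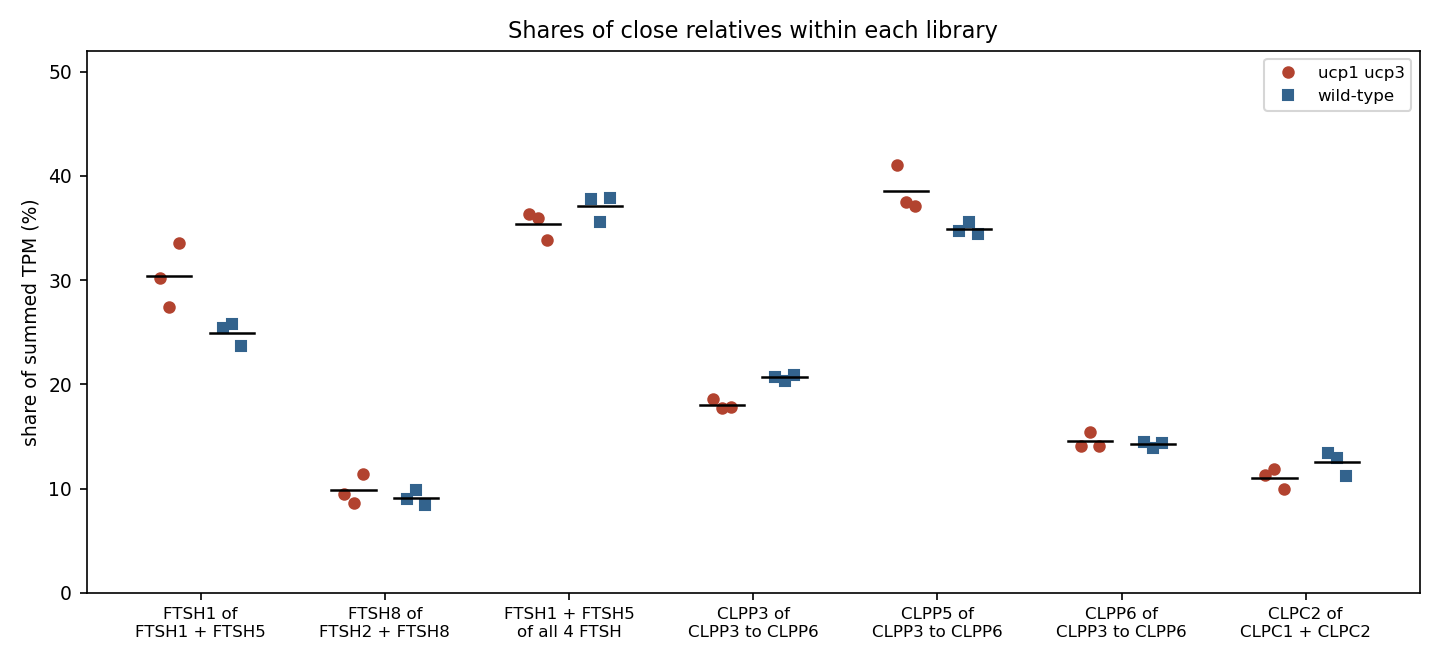
Share of summed TPM in percent (vertical axis, starting at 0) for close relatives within each library, with circles for the 3 libraries labelled ucp1 ucp3, squares for the 3 wild-type libraries and a line at each mean. The share of FTSH1 among the type A genes lies at 27.4% to 33.6% in the labelled mutants and 23.7% to 25.8% in wild-type, and the shares of CLPP3 and CLPP5 also separate the groups, whereas those of FTSH8, CLPP6, CLPC2 and the type A sum overlap.

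DEG1 (AT3G27925) had 112, 127 and 173 CPM in the labelled mutants, against 121, 124 and 125 CPM in wild-type. The wild-type libraries were nearly equal, and the labelled mutants reached both under and over them. Its log2 fold change was 0.13 ± 0.14 with all 6 libraries and -0.03 without ucp1 ucp3 replicate 3. Across the 10 genes, ucp1 ucp3 replicate 3 held the highest CPM of 5, FTSH1, FTSH2, FTSH8, DEG1 and CLPC1, and wild-type replicate 1 that of the other 5.

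In the Clp system the chaperone gene was level between the groups. CLPC1 (AT5G50920), which unfolds substrates for the protease barrel, had 1385, 1484 and 1623 CPM in the labelled mutants, against 1498, 1512 and 1475 CPM in wild-type. Its log2 fold change was 0.0012 ± 0.12, and the 95% interval of 85.3% to 117% of wild-type leaves room for a small difference in either direction. Its paralogue CLPC2 supplied 9.92% to 11.9% of their summed TPM in the labelled mutants and 11.2% to 13.4% in wild-type.

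The catalytic subunit genes were not alike. CLPP3 (AT1G66670) had 134, 137 and 136 CPM in the labelled mutants, against 177, 161 and 169 CPM in wild-type. The labelled mutants were nearly equal and lay under every wild-type library. The log2 fold change of CLPP3 was -0.32 ± 0.10, a level of 69.7% to 92.5% of wild-type. Over the 13 alternative fits it ran from -0.38 to -0.27.

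CLPP5 (AT1G02560), the most abundant catalytic subunit transcript, had 337, 332 and 323 CPM in the labelled mutants, against 339, 322 and 317 CPM in wild-type. It varied least of the 10 genes, with the highest library 1.07 times the lowest. The log2 fold change of CLPP5 was 0.02 ± 0.10. CLPP6 (AT1G11750) had 109, 128 and 116 CPM in the labelled mutants and 133, 118 and 125 CPM in wild-type, which overlapped, with a log2 fold change of -0.09 ± 0.11. It was the single gene of the 10 with a second transcript model, which had 6.81 estimated reads in ucp1 ucp3 replicate 2 and 0 in the other 5 libraries, and 16.3% of its 31-mers are found in antisense in other annotated mRNAs.

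Within the nuclear-encoded catalytic subunits CLPP3 to CLPP6, CLPP3 supplied 18.6%, 17.7% and 17.8% of the TPM in the labelled mutants, against 20.7%, 20.3% and 20.9% in wild-type. CLPP5 supplied 41.0%, 37.5% and 37.1% in the labelled mutants and 34.7%, 35.6% and 34.4% in wild-type. Both shares separated the groups, CLPP3 lower and CLPP5 higher, whereas that of CLPP6 overlapped, at 14.1% to 15.4% in the labelled mutants and 13.9% to 14.5% in wild-type. The inactive subunits CLPR1 to CLPR4 made up 46.4% to 48.9% of the summed nuclear CLPP and CLPR TPM in the labelled mutants and 42.5% to 45.0% in wild-type, again without overlap. All these shares are parts of a sum, so a higher share need not be a higher level. They come from the libraries on which the genes were chosen and are a description.

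Compared per length on the TPM scale, the 10 genes had the same order of means in both groups. In the labelled mutants the means were 508 ± 47.5 for CLPC1, 449.6 ± 54.0 for FTSH2, 287 ± 14.2 for CLPP5, 189 ± 13.6 for FTSH5 and 135 ± 7.72 for CLPP3 (SD, n = 3). CLPP6 followed at 109 ± 14.2, DEG1 at 94.8 ± 21.5, FTSH1 at 82.9 ± 12.6, FTSH8 at 49.6 ± 13.2 and SPPA at 9.30 ± 0.726. Neighbours whose libraries overlapped were CLPC1 and FTSH2, CLPP6 and DEG1, and DEG1 and FTSH1.

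In wild-type no pair of neighbours in this order overlapped. It ran from 538 ± 15.8 for CLPC1 and 454 ± 29.0 for FTSH2, over 303 ± 11.9 for CLPP5, 221 ± 8.01 for FTSH5 and 179 ± 6.87 for CLPP3, to 124 ± 6.08 for CLPP6 and 90.5 ± 2.20 for DEG1. FTSH1 had 73.5 ± 5.97, FTSH8 45.6 ± 6.69 and SPPA 28.7 ± 3.01. SPPA was thus the least abundant of the 10 transcripts in both groups. It lay under FTSH8 without overlap in each, at 28.7 against 45.6 TPM in wild-type and 9.30 against 49.6 TPM in the labelled mutants.

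The genes beside SPPA on the chromosome had values as follows. AT1G73980, the nearest locus on one side, had 50.0, 50.5 and 57.8 CPM in the labelled mutants, against 50.1, 46.8 and 51.8 CPM in wild-type (log2 fold change 0.06, edgeR adjusted p = 0.899). AT1G73970, the next one, lay at -0.14 on the log2 scale (edgeR adjusted p = 0.810). On the other side SS3 had 3.43, 2.02 and 2.71 CPM in the labelled mutants, against 1.84, 1.11 and 1.86 CPM in wild-type. The groups did not overlap, but these values rest on 3 to 23 reads in the labelled mutants and 4 to 9 in wild-type. SS3 was not tested. AT1G74010, the next locus on that side, lay at 0.09 (edgeR adjusted p = 0.945). None of the 3 tested neighbours passed the test.

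The genes most like SPPA were taken by the Pearson correlation of log2(CPM + 1) over the 6 libraries, among 12472 other genes averaging 10 CPM or more. They were AT3G26630 (r = 0.996), RSR4 (0.988), AT5G52780 (0.987), AT1G20220 (0.986) and OCT3 (0.986). Each likeness rests on 6 points that fall into the 2 groups, and the sizes differ, since these 5 genes had log2 fold changes of -0.21 to -0.60 and none was called. CLPP3 ranked 9 of the 12472 genes (r = 0.983), and FTSH5 ranked 304 (r = 0.880). FTSH1 ran against SPPA (r = -0.572).

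The other genes of plastid proteolysis were examined as 7 lists. Of 40 genes, 39 were tested, and edgeR called 0 of them, DESeq2 1 and limma-voom 0, where DESeq2 called 4.20% of the 9264 genes it gave an adjusted p. An unadjusted edgeR p under 0.05 was reached by 11 of the 39 and by 16.4% of all tested genes. Their median log2 fold change was -0.08, with 23 estimates under 0 and 16 over it, and the groups did not overlap for 10 that were lower and 4 that were higher, where 12.4% of all tested genes were lower without overlap and 11.2% higher. The 39 estimates ran from -0.56 to 0.67. The highest rested on few reads, those of the plastid-encoded CLPP1 (0.67, from 2 to 49 reads per library) and of EGY3 (0.61 ± 0.50, from 1 to 31). Next was CLPD at 0.39. Without ucp1 ucp3 replicate 2, 5 of them were called lower, FTSHI4, PLSP1, FTSH12, CLPT2 and EGY1, in a fit that called 347 genes lower and 326 higher over all genes.

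EGY1, a thylakoid intramembrane metalloprotease needed for chloroplast development, had the smallest p of the 39. It had 49.6, 65.8 and 65.0 CPM in the labelled mutants, against 89.0, 81.4 and 85.1 CPM in wild-type. The groups did not overlap, but the log2 fold change of -0.51 ± 0.13 did not pass (edgeR adjusted p = 0.0636). DESeq2 called it (adjusted p = 0.0451), and 18.3% of its 31-mers occur in a neighbouring gene on the same strand. PLSP1, a signal peptidase of envelope and thylakoid, had -0.51 ± 0.18 on the log2 scale (edgeR adjusted p = 0.177). It had 25.6, 42.2 and 31.6 CPM in the labelled mutants, against 56.1, 42.1 and 47.4 CPM in wild-type. The groups thus overlapped narrowly in CPM, and they did not overlap in TPM. Another gene holds 17.8% of the 31-mers of PLSP1 in antisense.

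The FTSHi genes encode inactive relatives of FtsH, several of which sit with FTSH12 in an inner envelope complex that acts in protein import. All 5 had estimates under 0, with a median log2 fold change of -0.35. By edgeR, by DESeq2 and by limma-voom 0 were called, where edgeR called 1.26% of all tested genes. An unadjusted edgeR p under 0.05 was reached by 3 of the 5 and by 16.4% of all tested genes. FTSHI4 had 41.6, 75.2 and 60.5 CPM in the labelled mutants, against 90.3, 85.6 and 88.6 CPM in wild-type, which gave -0.56 ± 0.18 on the log2 scale (edgeR adjusted p = 0.143). FTSHI5 had -0.38 ± 0.16 and FTSHI2 -0.35 ± 0.16. In each of FTSHI2, FTSHI4 and FTSHI5 the groups did not overlap and ucp1 ucp3 replicate 1 was lowest. Of all tested genes 12.4% were lower without overlap. Without ucp1 ucp3 replicate 1 the median of the 5 was -0.14.

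The 4 other plastid FTSH genes tested had a median log2 fold change of -0.06, and 0 were called by edgeR, DESeq2 or limma-voom. An unadjusted edgeR p under 0.05 was reached by 1 of the 4 and by 16.4% of all tested genes. FTSH12 had -0.36 ± 0.16 and FTSH11 -0.07 ± 0.12. FTSH6, a senescence-related family member, had 0 reads in all 3 wild-type libraries and in ucp1 ucp3 replicate 3 and was not tested. In the lumenal pair of DEG5 and DEG8, DEG5 had 38.6, 60.0 and 54.2 CPM in the labelled mutants, against 70.4, 65.9 and 64.4 CPM in wild-type. Its log2 fold change was -0.39 ± 0.15 (edgeR adjusted p = 0.202), and DEG8 overlapped. DEG7 had 0.18 ± 0.11.

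Among the remaining Clp genes, CLPT2, an accessory protein of the protease core, had 54.8, 72.1 and 57.8 CPM in the labelled mutants, against 95.4, 74.5 and 92.5 CPM in wild-type. The log2 fold change of -0.48 ± 0.14 did not pass (edgeR adjusted p = 0.0930). CLPD, a dehydration- and senescence-induced Clp chaperone also known as ERD1, had 263, 217 and 263 CPM in the labelled mutants, against 197, 196 and 170 CPM in wild-type. Its log2 fold change of 0.39 ± 0.12 did not pass either (edgeR adjusted p = 0.107). CLPB3, a stromal disaggregase, had -0.35 ± 0.13, and the plastid-encoded CLPP1 had 0.67 ± 0.34 from 2 to 49 reads per library. The 4 CLPR genes lay between 0.04 and 0.16 on the log2 scale. In peptide breakdown, the presequence protease genes PREP1 and PREP2 had -0.23 ± 0.14 and -0.31 ± 0.15, and neither passed.

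**Figure D4:**
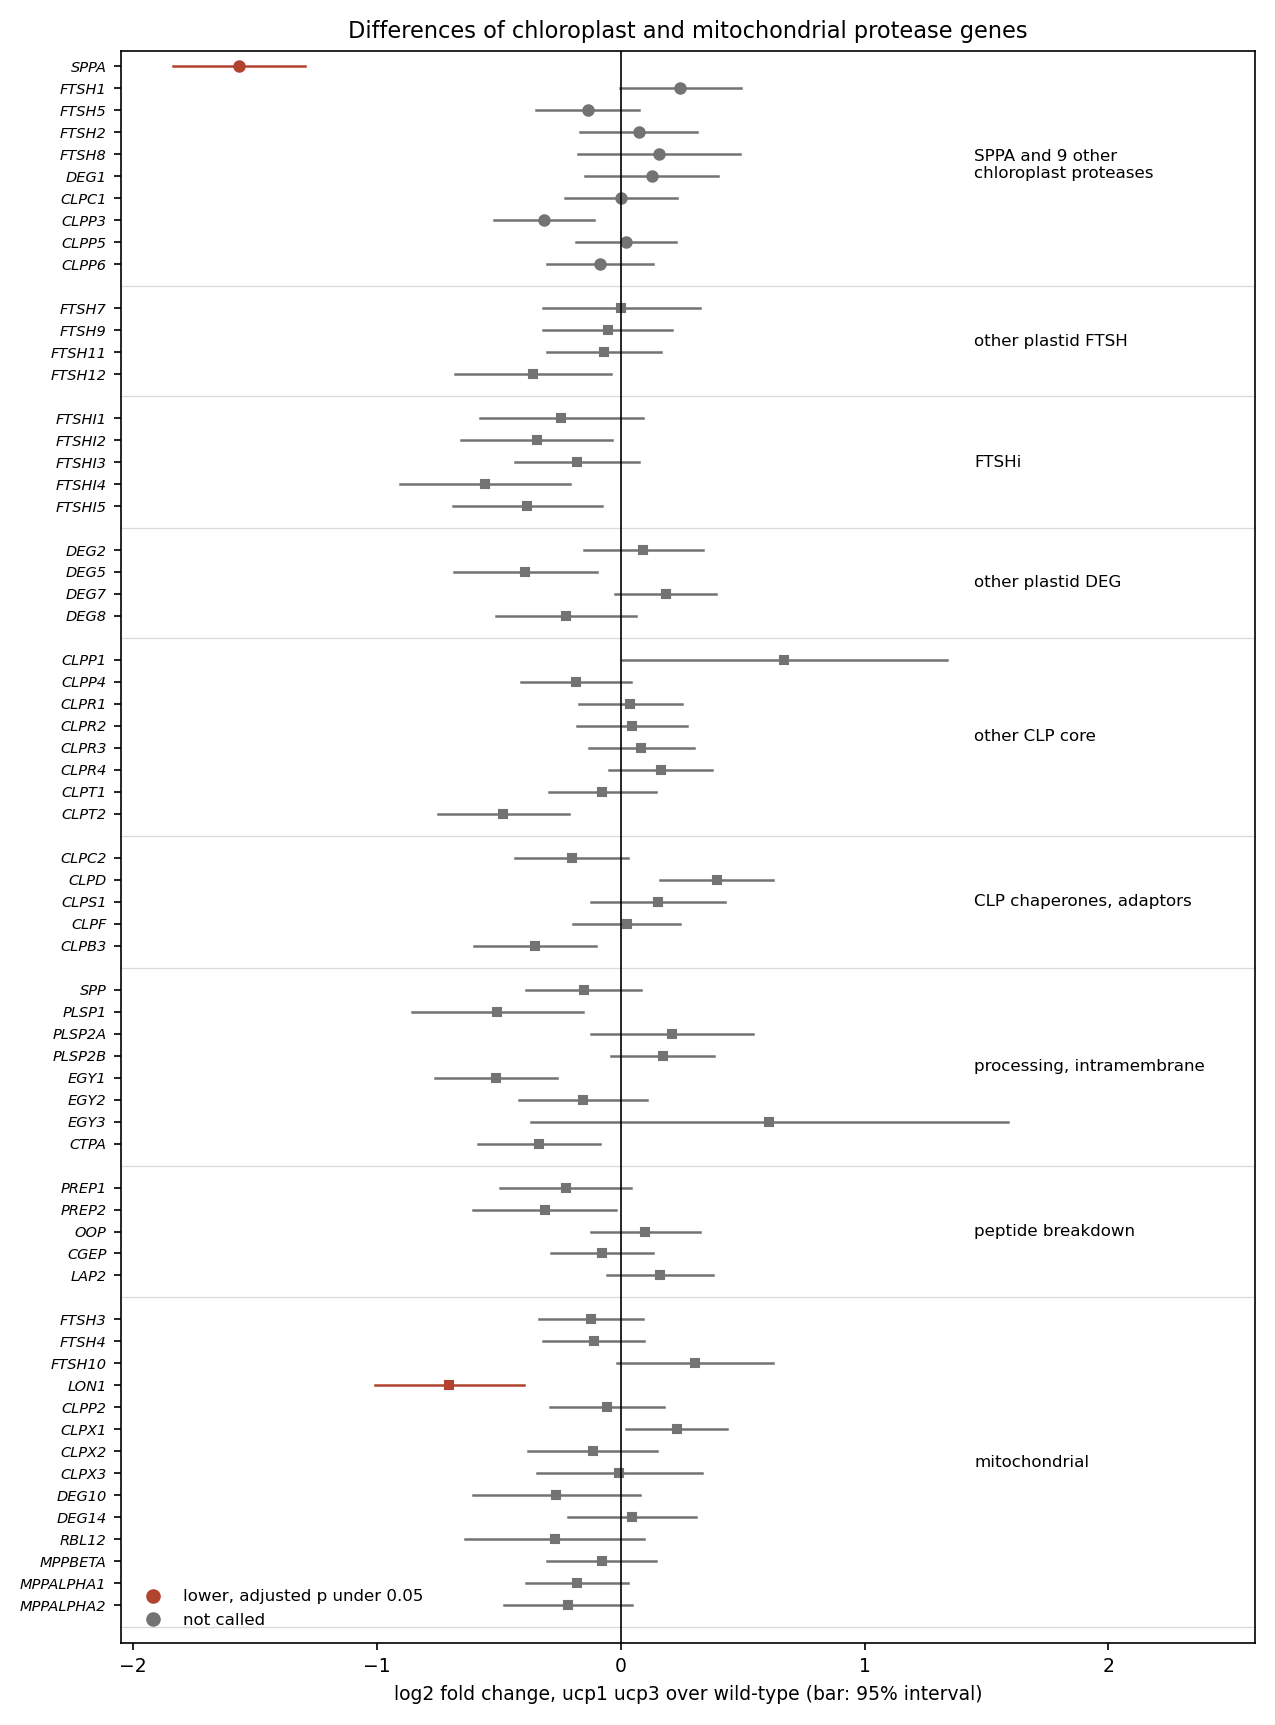
Log2 fold change, ucp1 ucp3 over wild-type (horizontal axis), with its 95% interval for the 10 protease genes (circles), 39 other plastid protease genes and 14 mitochondrial ones (squares). SPPA at -1.57 and LON1 at -0.70 are coloured as called lower, and the other genes are grey.

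For comparison with the other organelle, 1 of 14 mitochondrial protease genes was called, lower, where 0.482% of all tested genes were called lower and 0.781% higher. The groups did not overlap for 6 that were lower and 1 that was higher, against 12.4% and 11.2% of all tested genes. Of the 14 estimates 11 were under 0 and 3 over it. LON1, the ATP-dependent serine protease of the matrix, had 29.0, 32.5 and 19.0 CPM in the labelled mutants, against 51.0, 41.6 and 48.6 CPM in wild-type. It fell by 0.70 ± 0.16 on the log2 scale (SE; edgeR adjusted p = 0.0424), and the groups did not overlap. The call of LON1 was lost in 6 of 13 alternatives, among them the fits without wild-type replicate 1, wild-type replicate 3, ucp1 ucp3 replicate 1 and ucp1 ucp3 replicate 3, with log2 fold changes of -0.86 to -0.60 over all 13. CLPX1, the chaperone of the matrix Clp protease, had 0.23 ± 0.11 (edgeR adjusted p = 0.294). The median of the 14 was -0.11. Of the FTSH membrane proteases among them, FTSH3 and FTSH4 had -0.12 and -0.11, whereas FTSH10 had 0.30 ± 0.16. The groups overlapped for FTSH10, and 45.8% of its 31-mers are found in antisense in other annotated mRNAs.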

How the data were processed

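TruSeq Stranded mRNA libraries of 6 samples in 2 groups of 3 were analysed. The estimated counts and TPM values deposited by the authors are given per transcript model, made with kallisto per the submitters' processing notes, which also name DESeq2 and TAIR10 without versions. The strand setting of the quantification and the transcript index are not given in the sources used here, so reads of genes overlapping on opposite strands were treated as not separable.

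The tables list 35386 transcript models, whose estimated counts were added up per locus (27416 genes) and rounded. edgeR 4.0.16 in R 4.3.3 (default expression filter, TMM, robust quasi-likelihood F test, genotype as the only term) tested 17415 genes, with Benjamini-Hochberg adjustment over all of them and a call at an adjusted p under 0.05. CPM is the count over the TMM-scaled library size. The standard error of a log2 fold change is its size over the square root of F, and 95% intervals are normal ones from it. TPM was not rescaled. Shared 31-mers were counted in RefSeq mRNAs of TAIR10.1, the source of names and gene order. Its coordinates are not printed. The procedure was also run on simulated counts, drawn for independent libraries at the fitted dispersions. That run held no library set apart as an outlier and is not used as support here.

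The 10 genes and the other lists were chosen with earlier results of these data known. For the 10 genes the comparison is therefore a description. Of the other lists, called genes and the 2 genes with the smallest p per list are named, with the 5 genes at a mean of at least 10 CPM most correlated with SPPA and the 2 loci on each side of it. List genes named beyond that, among them FTSHI2, were chosen after their values were seen. Alternatives were RLE size factors, library totals, no filter, a stricter filter (mean count of at least 10 in each group), DESeq2 1.42.0, limma-voom (limma 3.58.1), a replicate block and leaving out each library. Poisson intervals and count floors cover counting error only.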

Additional observations from a re-analysis of the deposited data

How the results depend on the processing

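As a description, since SPPA was chosen on this comparison, its log2 fold change ran from -1.62 to -1.47 over the 13 alternative fits and from -1.61 to -1.47 when 1 library was left out, and the number of the 10 genes called was 1 in each. Over all genes, calls numbered 267 higher and 223 lower without a filter, 232 and 157 with DESeq2, and 124 and 78 with limma-voom. Leaving out 1 library gave 31 to 326 higher and 16 to 347 lower, and each of the 6 libraries moved the lower count by over 1.5 times. Other plastid protease genes called numbered 1 with library totals, with no filter and with DESeq2, EGY1 each time, and 0 to 5 without 1 library. The mitochondrial count was 0 with limma-voom and 0 to 1 without 1 library. With the replicate block 45 genes were lower and 122 higher, SPPA had -1.56 and LON1 lost its call. Deviations of same-numbered libraries from their group means correlated with r of -0.07, -0.10 and -0.01. These values cannot decide whether the numbers pair the samples, since each is 1 correlation over all genes between libraries of unlike depth. The sign of small estimates turned: CLPC1 had -0.070 with library totals, -0.0049 without a filter, -0.00063 with DESeq2 and -0.0012 with the replicate block, and CLPP5 -0.045 with library totals. Without 1 library CLPC1 ran from -0.053 to 0.054, FTSH2 from -0.019 to 0.14, FTSH8 from -0.030 to 0.29 and DEG1 from -0.027 to 0.25. With shares of estimated counts in place of TPM, the type A share of the 4 FTSH genes averaged 36.9% in the labelled mutants and 38.6% in wild-type. TPM of nuclear transcripts alone moved no mean beyond its SD. The cause of these shifts was not tested. Depth limits ucp1 ucp3 replicate 3 most, where 3 reads are 2.71 CPM.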

Other observations

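Chlorophyll breakdown, which accompanies the dismantling of thylakoids, was described by 6 genes, of which edgeR, DESeq2 and limma-voom called 0. Of all tested genes edgeR called 1.26%, and 16.4% had an unadjusted edgeR p under 0.05. Of the 6 genes 1 had such an unadjusted p. That gene, PAO, the pheophorbide a oxygenase that opens the chlorophyll ring, had 73.8, 79.7 and 62.3 CPM in the 3 samples labelled ucp1 ucp3, against 89.9, 90.3 and 109 CPM in wild-type (log2 fold change -0.39 ± 0.13, edgeR adjusted p = 0.131). The groups did not overlap for PAO, where 12.4% of all tested genes were lower without overlap, and PAO was called in 0 of 13 alternatives. NYE1, the stay-green magnesium dechelatase, had 7.08, 10.5 and 10.8 CPM in the labelled mutants and 10.4, 6.09 and 11.4 CPM in wild-type, which overlapped. NYC1, a chlorophyll b reductase, had a log2 fold change of 0.06 ± 0.13, and the second reductase gene NOL had -0.15 ± 0.15.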
